A study of Mus musculus with 2 samples.

Results

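Open CpG-island-like promoters of mouse kidney were described from DNase-seq, a method that sequences the ends left by the nuclease DNase I in accessible chromatin of isolated nuclei. A promoter was counted when a peak of replicate 1 overlapped a peak of replicate 2 by at least 1 base and its midpoint lay within 500 bp of the most upstream start of a protein-coding gene. The 1 kb centred on that start also had to have a CpG observed/expected ratio of at least 0.75, which compares the number of CG dinucleotides with that given by the numbers of C and G. The rule found 6048 peaks, 4.86% of the 124504 peaks of replicate 1. They lay at 5400 of the 6035 gene starts with such a ratio (89.5%). The tissue was kidney from 36-day-old female B6CASTF1/J mice, an F1 hybrid strain of C57BL/6J and CAST/EiJ. The design held 1 group of 2 libraries, biological replicates 1 and 2, with no treatment and nothing to compare it with. Each female has its own number in the labels, yet both samples share a donor entry, so the spread between libraries may be partly technical.

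CpG islands are stretches of mammalian DNA that have kept their CG dinucleotides because they are usually free of DNA methylation in the germ line. Most housekeeping genes and many developmental regulators start in one. An active island promoter carries a nucleosome-depleted region around the start, where factors such as Sp1, NRF1, ETS proteins and NF-Y bind, and transcription commonly begins at several nearby positions. Developmental genes that are silent in a tissue can keep an unmethylated island under Polycomb proteins.

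Several short sequences were found in these promoters inside footprints, narrow gaps in DNase I cutting of the kind that bound proteins can leave. The examples below show 1 such match each from the highest promoters with that motif, with footprints over the match in both libraries. They are written 5' to 3' on the strand of the gene, from the mm10 reference, with the motif match in capitals. All lie outside annotated exons, a condition added after the data were seen.
Senp2, NRF1, chr16:22009331-22009398, forward strand: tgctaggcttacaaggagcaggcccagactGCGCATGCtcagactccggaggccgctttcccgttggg
Smarcd2, Kaiso, chr11:106273051-106273118, reverse strand: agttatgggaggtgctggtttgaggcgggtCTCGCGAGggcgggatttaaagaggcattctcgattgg
Dnpep, SP/KLF, chr1:75317726-75317791, reverse strand: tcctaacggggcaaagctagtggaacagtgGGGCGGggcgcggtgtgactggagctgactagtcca
Rpl13a, YY1, chr7:45128959-45129026, reverse strand: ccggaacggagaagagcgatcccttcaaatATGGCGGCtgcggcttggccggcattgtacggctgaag
Cggbp1, ETS, chr16:64851777-64851843, forward strand: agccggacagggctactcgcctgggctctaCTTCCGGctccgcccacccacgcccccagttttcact
Bahcc1, NFY, chr11:120232829-120232895, forward strand: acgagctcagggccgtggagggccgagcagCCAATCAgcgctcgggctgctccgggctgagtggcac
Gdf9, RFX, chr11:53431053-53431119, forward strand: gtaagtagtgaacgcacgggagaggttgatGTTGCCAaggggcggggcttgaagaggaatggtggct

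The match at Senp2, which encodes a SUMO protease, is the palindrome-like element of NRF1, a regulator of nuclear genes for mitochondria. At Smarcd2, a subunit of SWI/SNF remodelling complexes, the CG-bearing palindrome searched under the name Kaiso stood beside a GC box. At Cggbp1 the ETS element is read on the opposite strand. The Gdf9 match lay in a peak shared with the divergent start of Uqcrq, a subunit of complex III, and was followed by a GC box.

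Peak heights are the authors' signal values, scaled by 1 factor per library on a scale that the sources used here do not state, so they were also ranked as percentiles of all peaks of a library. Read totals are not given, so depth is unknown and no counting interval was made. Replicate 1 had 124504 peaks and replicate 2 had 68056, of which 65636 peaks of replicate 1 were shared. As a check of the tissue, peaks in both libraries lay within 500 bp of the start of 6 of 10 proximal tubule markers, 3 of 5 thick ascending limb, 2 of 4 distal tubule and 4 of 7 collecting duct markers. For podocytes the count was 2 of 5 and for endothelium 3 of 5. Of the proximal tubule markers, Slc34a1, Slc6a19 and Slc22a8 had none in either. The counts were 1 of 5 for hepatocytes and 0 of 5 each for immune cells, neurons and gut. Over all protein-coding starts 52.6% had such a peak, and 38.7% of those with a CpG ratio below 0.75. The counts for kidney cells thus lay near the share of all starts, and do not by themselves identify the tissue. No test between classes of promoters was made below, because regions of 1 pair of libraries are not replicates, and differences are described in each library.

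Accessibility rose with the CpG ratio and then levelled off, as the plot by CpG ratio shows. Among gene starts with a ratio below 0.1, 2.98% were open in both libraries. Between 0.4 and 0.5 the share was 44.9%, between 0.7 and 0.75 it was 84.7%, and in the bins from 0.75 upward it ran from 88.1% to 92.3%. Over all starts below 0.75 it was 38.7%, that is 6148 of 15903, and over all 21938 protein-coding starts it was 52.6%. The threshold thus lay inside the CpG-rich group of genes and not between groups. The 5 starts just above it (Irak1, Trappc6b, Rpl10, Tet2 and Mfap1b) were all open, with heights in replicate 1 of 2.16, 3.8, 10.2, 1.43 and 6.74. The 5 starts just below it (Fitm2, Lrrc42, Slc25a15, Acbd5 and Rplp2) were also all open, with heights of 12.3, 13.5, 6.91, 17.3 and 9.92.

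**Figure D1:**
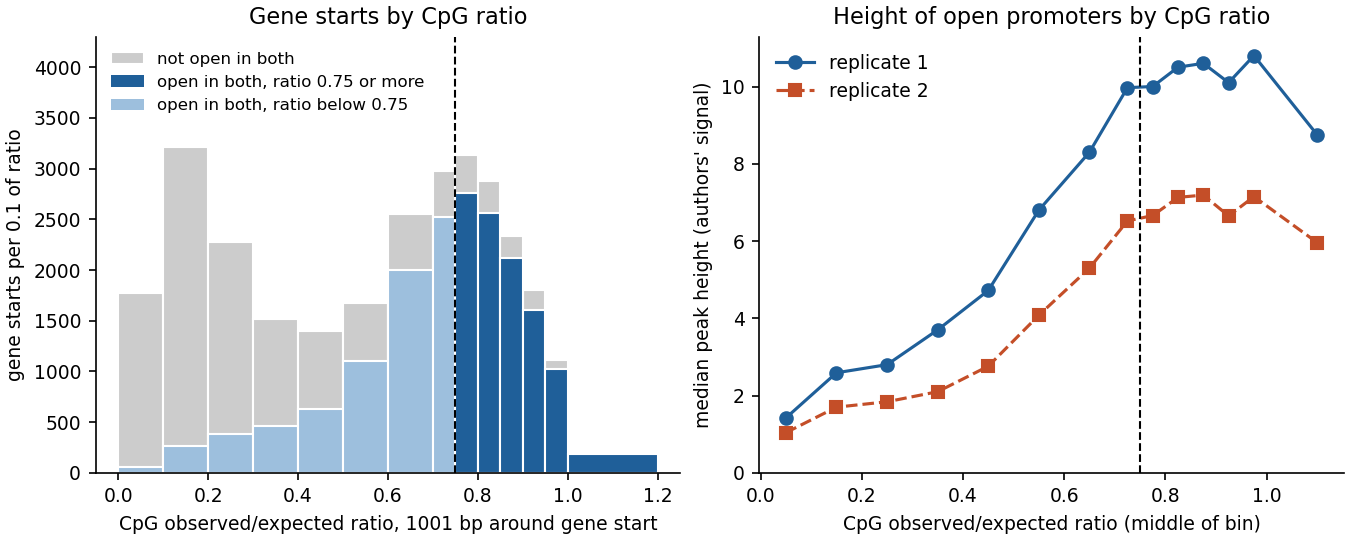
Left, protein-coding gene starts by CpG observed/expected ratio of the surrounding 1 kb, per 0.1 of ratio, with those open in both libraries in blue (dark at 0.75 and above, light below) and the others in grey; the last bar gathers all starts at 1.0 or above. Right, the median height of the tallest shared peak at open starts in each ratio bin and library, which climbs from 1.42 to 9.97 in replicate 1 below the dashed threshold at 0.75 and stays between 8.75 and 10.8 above it.

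The open island-like promoters were among the tallest peaks of the kidney. Their median height was 8.28 in replicate 1 and 5.41 in replicate 2. Open promoters with a ratio of 0.4 to 0.75 had medians of 6.38 and 3.97, and CpG-poor open promoters, with a ratio below 0.4, had 2.74 and 1.78. Distal shared peaks, over 1000 bp from any protein-coding transcript start, had medians of 2.12 and 1.28. The same order held in both libraries. Island-like promoters made up 51% of the tallest 1% of peaks of replicate 1 (635 of 1246) and 53.3% of those of replicate 2 (363 of 681). Their quartiles in replicate 1 ran from 4.02 to 14.2, and overlapped those of CpG-poor promoters, from 1.61 to 5.08.

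The heights of the open promoters kept nearly the same order in both libraries. Over the 6048 peaks Spearman's rho between libraries was 0.98 across regions, as for open promoters with a ratio of 0.4 to 0.75, against 0.94 for CpG-poor promoters and 0.86 for distal shared peaks. The SD of the log2 ratio of replicate 1 to replicate 2 was 0.33 for island-like promoters, 0.35 for the class of 0.4 to 0.75, 0.41 for CpG-poor promoters and 0.48 for distal peaks. These correlations describe regions that share libraries and are not independent replicates. The median log2 ratio at open starts was 0.53, and 202 of the 5400 starts were higher in replicate 2. The ratio was not the same at all heights. Starts with a replicate 1 height of 2 to 5 had a median log2 ratio of 0.75 (n = 885), and those at 20 or more had 0.24 (n = 709).

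**Figure D2:**
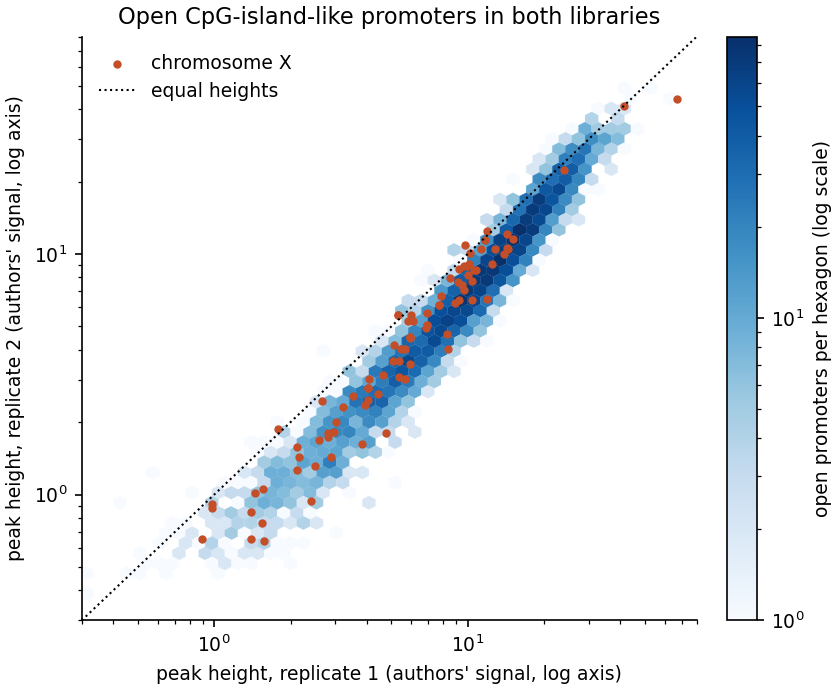
Height of the tallest peak at each of the 5400 open CpG-island-like gene starts in replicate 1 (horizontal, log axis) and replicate 2 (vertical, log axis), in the authors' signal. Blue hexagons count promoters, orange points are the 89 on chromosome X and the dotted line marks equal heights; most promoters lie below it, with a median log2 ratio of 0.53.

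The highest promoters belonged to genes of varied function. Dnpep, an aspartyl aminopeptidase gene, had heights of 52.7 and 48.8 in replicates 1 and 2, at a peak over chr1:75317661-75317940 on the transcribed side of its start. Bahcc1, a gene for a chromatin-binding protein, had 45.1 and 44.9 upstream of its start (chr11:120232681-120232900). Kdm6a, the X-linked H3K27 demethylase gene, had 41.3 in both libraries. Others among the highest 10 were Gm21887, Ankhd1, Hnrnpc, Mxd1, Rab40c and Zbtb5. Gm21887 had 66.8 and 44.1 near the end of chromosome X, where near-identical copies may share reads, so its height is uncertain.

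The lowest 5 open promoters were those of Elavl4, 5730507C01Rik, Asxl3, B430218F22Rik and Igfbp2. Elavl4, a neuronal RNA-binding protein gene, had heights of 0.334 and 0.387, with a peak 700 bp wide in replicate 1 and 96 bp wide in replicate 2. Igfbp2, for a binding protein of insulin-like growth factors, had 0.538 and 0.509.

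A few promoters, picked out only once their values were known, differed between the libraries far more than the rest. The shared promoter of the histone genes Hist1h2ae and Hist1h2bg had heights of 4.19 and 0.937, a log2 ratio of 2.16, the largest of all. Hist1h2bb had 5.17 and 1.18, and Hist1h2bm had 2.9 and 0.703. Over all 49 open histone cluster genes, of 58 with an island-like start, the median log2 ratio was 0.64 and the upper quartile 1.01, against 0.53 and 0.75 over all open starts. Histone starts were also lower, with a median height of 6.65 in replicate 1 against 10.2, and the log2 ratio varied with height. At replicate 1 heights of 5 to 10 their median log2 ratio was 0.66 (n = 20), against 0.643 over all open starts of that height. At 10 to 20 it was 0.374 (n = 12) against 0.465, and at 2 to 5 it was 0.899 (n = 15) against 0.747. Below 2 it was -0.159 (n = 2) against 0.602. A log2 ratio above 1 was found at 13 of the 49, and at 446 of all 5400. In the other direction Gm10722 had 0.566 and 1.23, and Rasef, for a Rab-related GTPase, had 0.445 and 0.896.

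The peaks sat slightly upstream of the annotated start. The median midpoint was at -32 bp from the start, that is upstream, in both libraries. At the 3336 starts with 1 open peak that served no other island-like start, the median was at -43 bp in replicate 1 and -42 bp in replicate 2, and 74% and 73.1% of these peaks spanned the start. The median width was 200 bp in replicate 1 and 220 bp in replicate 2, and 8.63% of island-like promoter peaks were wider than 300 bp in replicate 1, against 5.25% of CpG-poor and 4.53% of distal shared peaks. Median widths of single peaks were thus close in these classes, since distal shared peaks had 200 and 180 bp.

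The accessible tract around the start was longer at island-like promoters than the peaks alone. Bases whose cut rate had a false discovery rate no higher than 0.001 covered a median of 892 bp of the 2000 bp around the start in replicate 1 and 678 bp in replicate 2. At CpG-poor open starts the medians were 475 and 342 bp. In replicate 1 the tract was longer on the transcribed side, with medians of 472 bp downstream and 385 bp upstream, while in replicate 2 the medians were 306 and 312 bp. The share of starts covered stayed above 50% of its maximum from -360 to 440 bp in replicate 1 and from -320 to 260 bp in replicate 2. For CpG-poor starts it did so from -240 to 180 bp and from -200 to 160 bp.

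**Figure D3:**
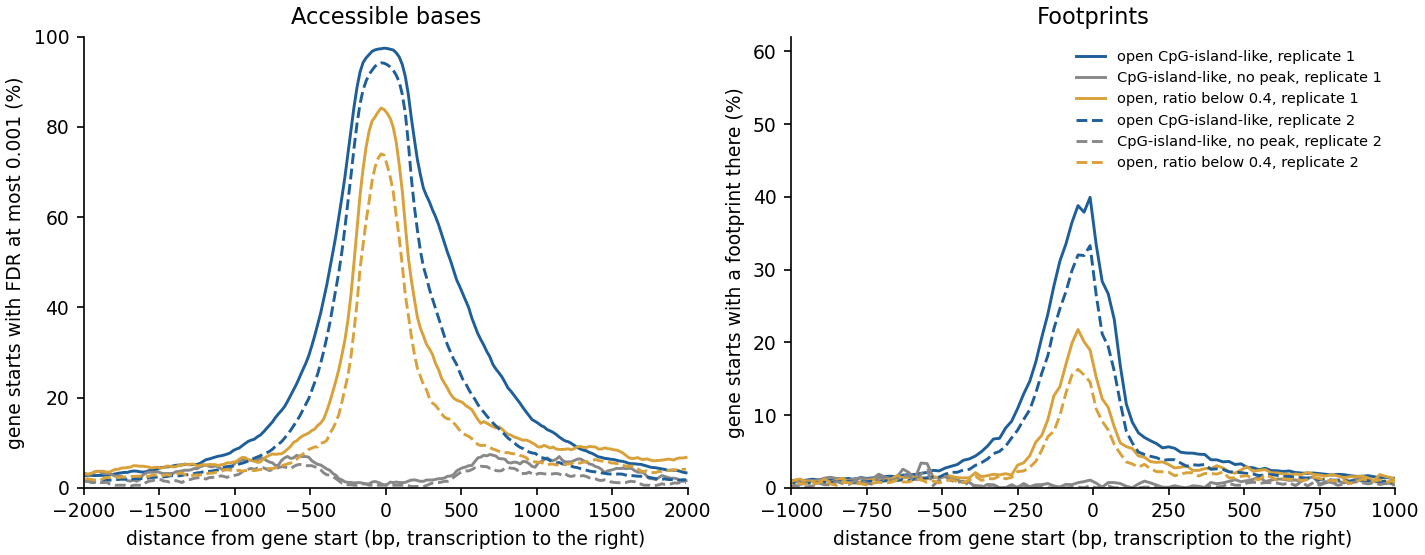
Share of gene starts covered by accessible bases (left, false discovery rate no higher than 0.001) and by footprints (right) against distance from the start in bp, in 20 bp steps, for open CpG-island-like starts (blue), open starts with a ratio below 0.4 (gold) and CpG-island-like starts with no peak (grey), with replicate 1 solid and replicate 2 dashed. The blue curves reach 97.5% and 94.2% at the start on the left and 39.9% and 33.3% on the right.

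Some promoters held more than 1 peak. Of the 5400 open starts, 4117 (76.2%) had 1 peak, 1214 (22.5%) had 2 and 69 (1.28%) had 3 or more. Adjacent peaks at a start had midpoints a median of 400 bp apart, with quartiles of 330 and 470 bp. Where there were 2, the upstream peak lay at a median of -97 bp with heights of 8 and 5.28, and the downstream one at 301 bp with heights of 4.51 and 2.88. The upstream peak was the taller at 65.2% of these starts in replicate 1 and 63.8% in replicate 2.

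Footprint density was highest at CpG-rich promoters. Island-like promoter peaks held 18.7 footprints per kb in replicate 1 and 16.9 in replicate 2, close to the 17.7 and 15.8 of open promoters with a ratio of 0.4 to 0.75, against 14.8 and 13.1 in CpG-poor promoters and 14.1 and 12.6 in distal shared peaks. They covered 34.5% and 28.1% of island-like promoter peak bases and 31.5% and 25% in the class of 0.4 to 0.75, against 20.7% and 16% of distal peak bases. Island-like footprints had median widths of 17 and 14 bp, and distal ones 12 and 10 bp. A footprint was matched between libraries by an overlap of 50% or more of the shorter, and 69.4% of those of replicate 1 in island-like promoters had a match in replicate 2. The share was 51.6% in CpG-poor promoters and 48.7% in distal peaks. For footprints of replicate 2 matched in replicate 1 the shares were 81.3%, 64% and 61.3%, in the same order of classes. Footprints were wider and covered more bases in island-like promoters than in distal peaks, which makes random overlap more frequent there. Such overlap was not estimated.

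The number of footprints moved with peak height, and the order of the classes depended on it. Among peaks of the 90th to 95th height percentile of replicate 1, island-like promoters held 21.7 footprints per kb and distal peaks 18.3. Among peaks in the lower 50% of heights the order was the opposite, with 3.61 per kb in 277 island-like promoters and 10.5 per kb in distal peaks. Replicate 2 gave 20.4 against 17.3, and 6.66 against 11.1. The excess was therefore found in tall peaks and not in low ones.

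The widest promoter peak in replicate 1, with the most footprints over both libraries together, was that of Zbtb20, a gene for a zinc finger repressor. Its peak covered 860 bp with 19 footprints in replicate 1 and 580 bp with 10 in replicate 2 (chr16:42875021-42875880), at heights of 25.6 and 28.1. Nfya, which encodes the DNA-binding subunit of NF-Y, had 12 and 14 footprints in peaks of 560 and 580 bp. Khsrp, for a splicing and mRNA decay factor, had a peak of 620 bp with 11 footprints in each library. Scaf8 had 12 footprints in each library at heights of 5.5 and 4.26, below the medians of open starts. Lcorl had 11 and 12, and Baiap2l1 had 13 and 11. Spag6 and Elavl4 were wide in replicate 1 alone, with 680 and 700 bp against 199 and 96 bp.

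Sequence motifs were searched on both strands from 250 bp before to 50 bp after each start, and matches of different motifs could overlap. The GC box of the SP/KLF proteins (GGGCGG) was present at 75% of open island-like starts, 69.1% of the 346 island-like starts with no peak in either library, 62% of open starts with a ratio of 0.4 to 0.75, 25.4% of open CpG-poor starts and 43.1% of all starts. The ETS element (CCGGAAG) was at 20.9% of open island-like starts, 6.07% of those with no peak, 18% of open starts with a ratio of 0.4 to 0.75 and 10.8% of all starts. NRF1 (GCGCATGC) was at 7.35%, 2.89% and 3.72% and YY1 (ATGGCGGC) at 6.28%, 1.73% and 2.58%, of open island-like, peakless island-like and all starts. These motifs contain CG, and the classes were chosen by their CpG ratio, so the rule itself bears on their order against CpG-poor and all starts. The comparison with peakless island-like starts lies within the ratio of the rule. The window had a GC content of 64.2% at open and 67.3% at peakless island-like starts, so the motifs were more frequent where GC content was slightly lower.

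Several other motifs were also more frequent at open than at peakless island-like starts, though not always than at other open starts. NF-Y (CCAATCA) was at 11.4% of open and 6.07% of peakless island-like starts and at 11.3% of open starts with a ratio of 0.4 to 0.75, the cAMP response element of CREB and ATF proteins (TGACGTNA) at 6.96% and 3.47%, and the Kaiso palindrome (CTCGCGAG) at 3.33% and 1.16%. The ZNF143 core (ACTACAA) was at 3.57% and 0.867%, but at 5.76% of open starts with a ratio of 0.4 to 0.75 and 3.71% of all starts. The TATA letters (TATAAA) went the other way, at 5.5% of open island-like, 9.25% of peakless island-like and 12.7% of all starts. In the position of a TATA box, 40 to 15 bp before the start on the gene strand, they were at 30 of the 5400 open island-like starts (0.556%) and 2.42% of all starts. At open starts with a ratio of 0.4 to 0.75 the share was also low, at 0.861%. The HNF1 motif, named for a factor of tubular cells, was at 0.111% of open island-like starts and 1.82% of open CpG-poor starts. It was at 0.14% of open starts with a ratio of 0.4 to 0.75. The TATA and HNF1 letters are mostly A and T. The window had a GC content of 64.2% at open island-like, 51.9% at open CpG-poor and 55.2% at all starts. The rule thus also bears on the order of these motifs against CpG-poor and all starts.

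Motifs differed in where they lay. YY1 matches had a median position of 10 bp, downstream of the start, and 64% read on the gene strand. NF-Y matches had a median of -71.5 bp and SP/KLF matches of -61 bp, with 50.6% and 50.4% on the gene strand. ZNF143 matches lay further out, at a median of -97.5 bp.

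Promoters with certain motifs were taller. Open starts with an NF-Y match had a median height of 15.3 in replicate 1 and 11.7 in replicate 2, against 9.67 and 6.39 without one. ZNF143 gave 13.2 against 10.1 in replicate 1, Kaiso 12.7 against 10.1, and NRF1 12.5 against 10. With a GC box the medians were 10.4 and 7, against 9.67 and 6.53 without, a much smaller step. Over a list of 10 promoter motifs, median height in replicate 1 was 7.65 at the 524 starts with none, 9.17 with 1, 11.4 with 2, 13.2 with 3 and 15 with 4. Replicate 2 gave 5, 5.93, 7.73, 9.49 and 10.8. More GC boxes brought no such order, since starts with 4 or more had 9.57 and 6.18.

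The motifs also differed in how often a footprint covered them. Matches were counted in the bases that the peaks of both libraries shared. For NRF1, 85.1% of 579 matches lay wholly inside a footprint in replicate 1 and 81.2% in replicate 2, while of all windows of that length in the same peaks 22.8% and 17.5% did. The cAMP response element reached 85% and 72.9% of 612 matches, and Kaiso 68.8% and 60.6% of 170. For SP/KLF the shares were 61.7% and 48.3% of 8838, against 26.6% and 20.9% of all windows. NRF1 matches in distal peaks were covered less often, at 50.3% and 41.3% of 312. Footprints also covered fewer of all windows of that length there, at 12.7% and 8.03%. Not every motif was covered less often in distal peaks. CTCF matches reached 84.4% and 50.6% there, against 49.7% and 39.5% in island-like promoter peaks. What lies behind the lower NRF1 share was not tested.

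A further group was covered above the level of all windows but less often than NRF1. RFX (GTTGCCA) reached 50.3% and 42.7% of 143 matches against 24.7% and 19.2% of all windows, and the CTCF motif 49.7% and 39.5% of 147 against 16.7% and 12.4%. YY1 reached 39.3% and 28.7% against 22.8% and 17.5%, and the E-box (CACGTG) 41.9% and 28.6% against 26.6% and 20.9%. ETS matches were covered at 32.9% and 28.7% against 24.7% and 19.2%. NF-Y matches stood near the level of all windows, at 25% and 22.8% against 24.7% and 19.2%, although promoters with NF-Y had the highest median height of the motifs searched. ZNF143 matches were covered at 22.2% and 5.56%, and AP-1 (TGANTCA) at 6.78% and 3.39% of 118 matches, below the same levels. A motif match is a run of letters, and whether its factor was bound was not measured.

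**Figure D4:**
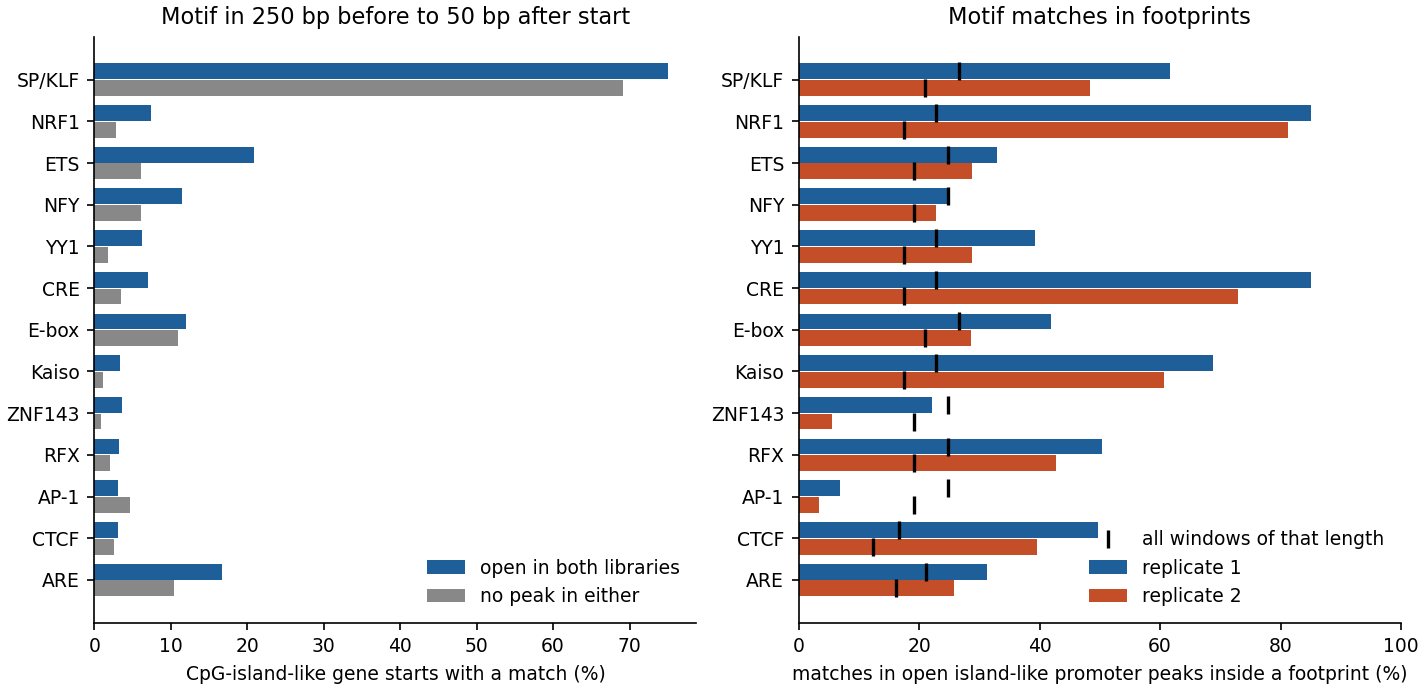
Left, percent of CpG-island-like gene starts with each motif from 250 bp before to 50 bp after the start, for starts open in both libraries (blue, n = 5400) and with no peak in either (grey, n = 346). Right, percent of motif matches in open island-like promoter peaks that lie inside a footprint in replicate 1 (blue) and replicate 2 (orange), with black marks for all windows of the same length; NRF1 stands at 85.1% and 81.2% and NF-Y at 25% and 22.8%.

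Divergent gene pairs were frequent. Of the 5400 open island-like starts, 833 (15.4%) had another protein-coding start on the opposite strand up to 1000 bp upstream. The share was 2.52% of the 635 island-like starts that were not open, 10.3% of open starts with a ratio of 0.4 to 0.75, 1.56% of open CpG-poor starts and 6.79% of all starts. Divergent promoters had median heights of 13 and 9.2, against 9.79 and 6.45 for the others. The median gap between the paired starts was 115 bp. In 377 of the 378 pairs with both starts open and island-like the partners shared a peak, so the paired genes are not independent regions. Examples were Psmb1, a proteasome subunit gene, and Tbp, the TATA-binding protein gene, whose starts lay 137 bp apart at a peak of heights 22.1 and 16.9. Med22, of the Mediator complex, and Rpl7a, a ribosomal protein gene, started 87 bp apart at heights of 26.6 and 16.8.

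Promoters on chromosome X were lower. The 89 open island-like starts on X, of 106 (84%), had median heights of 5.93 and 4.52, against 10.3 and 6.91 at 5311 autosomal ones. Their quartiles in replicate 1 were 3.22 and 9.79, against 5.72 and 16, so the ranges overlapped widely. Distal shared peaks on X were lower too, at 1.59 and 0.927 against 2.14 and 1.28. In cells of females an X chromosome is silenced, and whether this moved the heights was not tested. Kdm6a was among the highest 10 promoters of all. Reads of the C57BL/6J and CAST/EiJ alleles were not analysed here. Of the 5 island-like starts on chromosome Y none had a peak in either library, which follows from the sex of the animals. These 5 are still counted among the island-like starts that were not open. Among autosomes, chromosome 7 had the highest medians, 13.1 and 9.14.

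The 635 island-like starts that did not count as open were mostly of 2 kinds. At 276 (4.57% of all island-like starts) a peak was present in replicate 1 alone, with a median height of 0.835 against 10.2 at open starts. At 346 (5.73%) there was no peak in either library, and 7 had one in replicate 2 alone. Of the 346, 20 had a peak in both libraries in the authors' wider peak set and 219 had none in either. At 114 of them a peak midpoint lay more than 500 and up to 2000 bp away.

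Gene groups of basic cell function were open almost throughout, where 89.5% of all island-like starts were. All 49 island-like cytosolic ribosomal protein genes were open, with median heights of 14 and 10.1 and a range in replicate 1 from 2.78 to 26.6. Rplp0, of the large subunit stalk, had 24.7 and 27.9, and Rps19, of the small subunit, 23.5 and 22.9. All 17 proteasome, 21 RNA polymerase II and Mediator and 23 spliceosome genes were open as well. Snrnp70, for the U1-70K protein, had heights of 39.3 and 31.2, and Snrpa, for another protein of the U1 particle, 29.5 and 31.8. Of 27 respiratory chain genes 26 were open, Uqcrq leading at 32.7 and 31, and Ndufa13, for a complex I subunit, had no peak within 500 bp of its annotated start.

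Cell division genes had open promoters as well. All 22 island-like DNA replication genes were open, with median heights of 12.5 and 8.36, and all 16 mitosis genes, with 11.6 and 7.71, counts near the 89.5% of all island-like starts. The medians over all open starts were 10.2 and 6.81. Gins2, a helicase subunit gene, had 29.3 and 29.5, Mcm5 had 23.2 and 18.9, and Cenpf, for a kinetochore protein, had 18.4 and 15.9. Openness of a promoter does not measure transcription, which was not assayed.

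Genes with rhythmic or inducible expression were among the tallest groups. Of 14 island-like circadian clock genes 13 were open (92.9%, near the 89.5% of all island-like starts), with median heights of 15.2 and 9.69. Nr1d2, a repressor of the clock, had 31.6 and 27.5, Arntl, an activator, 19.5 and 24.4, and Per2, for its period protein, 22.6 and 18.9. Npas2, a paralogue of Clock, had no peak in either library. Of 14 immediate early genes 13 were open as well, with medians of 13.2 and 8.22. Jun, for an AP-1 subunit, had 37.3 and 26.4, and Klf6 had 23.5 and 26.3, while Egr4 had no peak.

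Developmental regulators of other tissues stood below the 89.5% of all island-like starts. Of 14 island-like transcription factor genes of other organs 3 were open (21.4%), Nkx6-1, Sox2 and Olig1, with median heights of 1.73 and 0.764. Sox2 had 2.25 and 0.764, and Olig1 had 0.538 and 0.581. The peaks of Nkx6-1 and Sox2 had midpoints at -465 and -474 bp, near the limit of 500 bp from the start. Isl1, Neurog1 and Neurog2 had peaks in replicate 1 alone, at heights of 0.362, 0.51 and 0.687, and the other 8, among them Olig2, Sox1 and Otx2, had none. Of 12 neuronal genes 4 were open (33.3%), with medians of 2.42 and 0.988.

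Ligand and Hox genes were open in part, at shares below the 89.5% of all island-like starts. Of 15 Wnt, Fgf and Bmp ligand genes 3 were open (20%), namely Bmp6 at 9.11 and 5.13, Bmp7 at 5.48 and 3.51 and Fgf20 at 3.29 and 1.78. Wnt4, a nephron-inducing ligand in development, had a peak in replicate 1 alone at 0.9, as had 6 others of the list, and Bmp2 had one in replicate 2 alone. Of 11 Hox genes 5 were open (45.5%), all between 4.31 and 8.43 in replicate 1. Hoxa5 had 8.43 and 4.88 and Hoxb7 had 6.11 and 4.04. Hoxa13, Hoxc11, Hoxc12 and Hoxd13 had no peak, and Hoxb9 and Hoxd1 had one in replicate 1 alone.

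**Figure D5:**
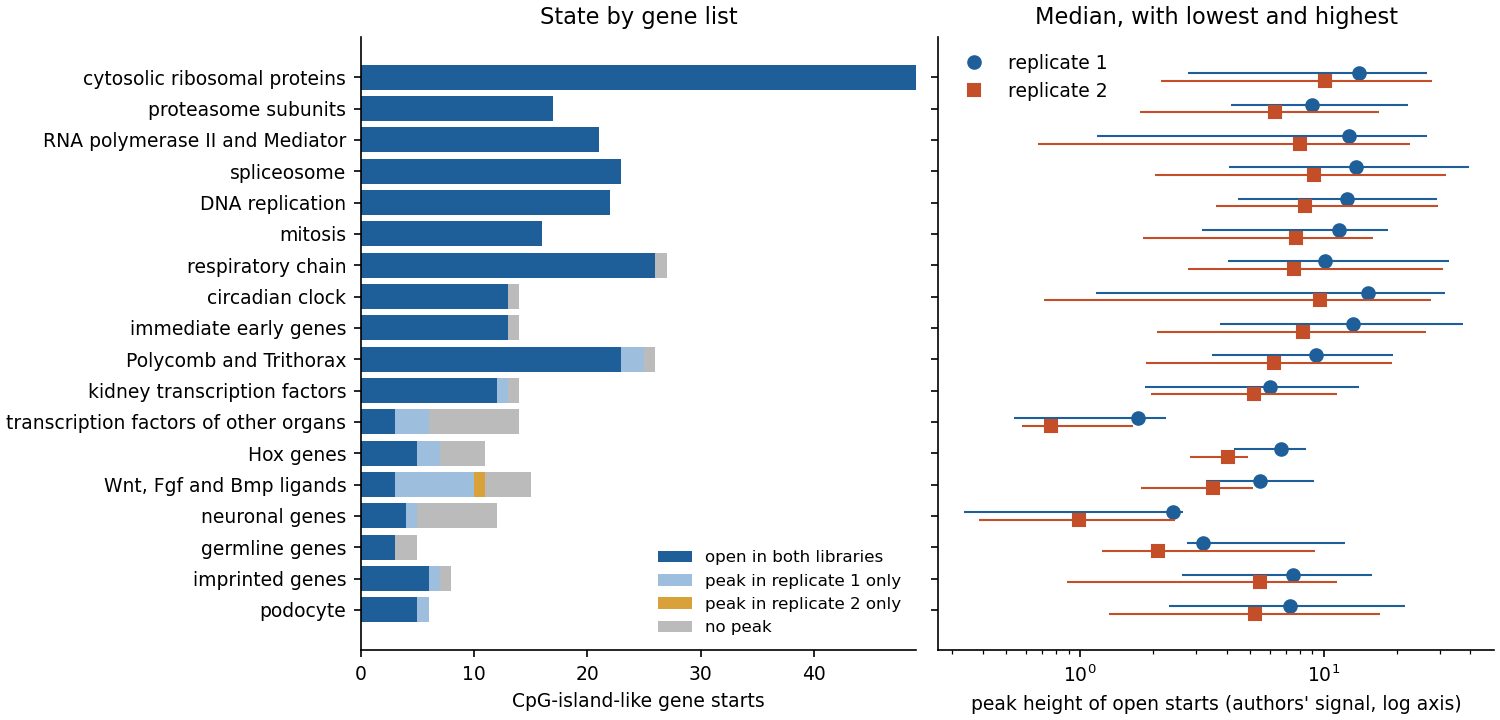
Left, number of CpG-island-like gene starts in each gene list with at least 5, by state: open in both libraries, with a peak in 1 library alone or with none. Right, median height of the open ones in the authors' signal on a log axis (circles, replicate 1; squares, replicate 2) with lines from the lowest to the highest; transcription factors of other organs stand at 1.73 and 0.764 and ribosomal proteins at 14 and 10.1.

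Kidney transcription factors were mostly open, at heights below the median open start. Of 14 island-like genes 12 were open (85.7%), near the 89.5% of all island-like starts, with medians of 6.02 and 5.16. Tbx2 had 14 and 11.3, Maf 13.6 and 9.19, and Foxc2 7.95 and 6.54. Irx1 had a peak in replicate 1 alone at a height of 1, and Lmx1b, a podocyte factor, had none. Whole kidney mixes cell types, so fewer cells of a type and less accessibility per cell cannot be told apart. Of 26 Polycomb and Trithorax genes 23 were open, Kmt2b at 19.3 and 19 and Ezh2 at 13.7 and 12.1. Phf19 and Kmt2d had peaks in replicate 1 alone, and Setd1b had none.

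Of all protein-coding starts 27.5% were island-like, and lists of kidney cell genes lay below or near that share. Of 36 proximal tubule genes 2 had an island-like start (5.56%), of 34 distal nephron genes 2 (5.88%) and of 21 endothelial genes 2 (9.52%). Of 20 podocyte genes 6 had one (30%), near the share of all starts. Of the 34 proximal tubule genes below the ratio 23 were open, where 38.7% of all starts below it were. Lrp2, which encodes the endocytic receptor megalin, was open at 7.46 and 5.11, and Slc4a4, for the basolateral bicarbonate cotransporter, had a peak in replicate 1 alone at 0.974. In the distal nephron list Wnk1 had 15 and 12.5 and Stk39 had 4.75 and 3.6, both kinases that control salt transport. Of the 6 island-like podocyte genes 5 were open (83.3%), near the 89.5% of all island-like starts. Actn4 had 21.6 and 17 and Podxl had 4.31 and 2.71, while Plce1 had a peak in replicate 1 alone. No gene of the immune or hepatocyte lists had an island-like start, so these lists say nothing about such promoters.

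Among 8 imprinted genes with an island-like start 6 were open (75%, where all island-like starts gave 89.5%), among them Ube3a at 15.8 and 11.4 and Cdkn1c, a cyclin-dependent kinase inhibitor gene, at 7.31 and 5.22. Peg10 had a peak in replicate 1 alone and Nnat had none. Of 5 germline genes 3 were open (60%): Tdrkh at 12.2 and 9.24, Stag3 at 2.75 and 2.1 and Meiob at 3.19 and 1.23.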

How the data were processed

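Peak and footprint files of 2 kidney DNase-seq libraries were used. Per the labels they were made on mm10, and the authors derived each file, as their description says, from the filtered alignment of its own library. Aligner and callers: not given in the sources used here. Column values of the deposited peak files are a signal, used as peak height. The deposited footprint files carry the same p-value, 0.01, throughout, read as a threshold, and the deposited cut-rate files a false discovery rate per interval below 0.05. Of the authors' 2 peak sets per library the stricter was used.

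Gene starts came from GENCODE release M21 and sequence from the RefSeq copy of the mm10 assembly. The rules for peaks, CpG ratio, motifs (16 consensus sequences), footprints and 24 gene lists are given with the results. Each gene start was given its tallest open peak by mean height percentile. A height in replicate 2 is that of the overlapping peak. Named genes were the 10 highest, 5 lowest, 5 widest and 5 most footprinted promoters, those nearest the CpG threshold, up to 4 of each list, and members of a list without an open peak (all if at most 5, otherwise the first 3). Some genes that this rule takes are not reported here. Others are said to be chosen after their values were seen, or complete a small count. The members and lists were chosen with earlier results of these data known. With 1 group of 2 libraries no test was made. Scripts ran in Python 3.11.15 with numpy 2.4.6 and pandas 2.3.3 and were tested on simulated data.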

Additional observations from a re-analysis of the deposited data

How the results depend on the processing

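The results tried under alternatives were counts, shares, medians and densities of the open island-like promoters alone, which have no direction to reverse. Orders between classes of promoters were not recomputed. Values are means over both libraries where each has one. The number of promoter peaks fell from 6048 to 3168 at a CpG ratio of 0.85. The share of island-like starts that were open, 89.5%, became 84.3% within 250 bp and 82.9% with the stronger 50% of peaks, and ranged from 89.6% to 94.2% with 1 replicate left out. Footprints per kb, 17.8, became 19.2 within 250 bp, 16.3 within 1000 bp and 19.3 with the stronger 50% of peaks. Counted over each library's own peaks, 53.2% of SP/KLF matches lay wholly inside a footprint (59.5% and 46.8%) and 68.8% overlapped one. Starts with an SP/KLF match, 75%, became 72.7% and 77.7% at ratios of 0.65 and 0.85, 74.5% with the ratio over a window of about 500 bp, 75.4% within 250 bp, 74.8% within 1000 bp, 77% from any transcript start, 75.1% with the wider peak set, 75.2% with the stronger 50% of peaks, 83.2% from 500 bp before to 100 bp after the start, and ranged from 75% to 75.1% with 1 replicate left out. Divergent partners, 15.4%, became 14.2% and 14.4% at ratios of 0.65 and 0.85, 14.6% over that window, 21.5% from any transcript start, 16.4% with the stronger 50% of peaks and 14.8% within 500 bp, and ranged from 14.8% to 15.4% with 1 replicate left out. No paired analysis was possible because the design has 1 group and no test. Read depth is unknown, so a start without a peak may be open below detection, and replicate 2, with fewer peaks, limits which promoters count as open.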
